A study of Rattus norvegicus with 30 samples.

Results

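The genes described here encode the proteins with which circulating leukocytes hold on to the vessel wall. They are the integrin α subunits *Itgal*, *Itgam*, *Itgax* and *Itga4*, the integrin β subunit *Itgb2*, the wall-bound ligands *Icam1* and *Vcam1*, the leukocyte selectin ligand *Selplg* and the selectin *Selp*. They were taken by gene symbol from the table of read counts, and all 9 were found among its 32545 genes. Poly(A) RNA came from the renal cortex (Cx) and the outer medulla (OM) of the right kidney of male Sprague-Dawley rats, an outbred laboratory strain. Rats ate a diet with 0.4% NaCl (LS) or were moved from it to 4.0% NaCl for 14 d (HS14) or 21 d (HS21), and each of the 6 groups of tissue and diet has 5 libraries. The labels name no engineered allele, no other treatment and no age. HS14 and HS21 were each compared with LS in both tissues, which asks whether the adhesion genes change on the high-salt diet. Both HS groups ate 4.0% NaCl and differ in the days on it. With a single LS group in each tissue, time in the study cannot be told apart from salt.

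Leukocytes leave the blood in ordered steps. Selectins on activated endothelium and platelets, among them P-selectin (*Selp*), catch glycosylated ligands such as PSGL-1 (*Selplg*) on the leukocyte and make it roll. Chemokine signals then switch the leukocyte's integrins to a high-affinity form: those built on the β2 chain (*Itgb2*) with αL (*Itgal*), αM (*Itgam*) or αX (*Itgax*) bind ICAM-1 (*Icam1*), and α4 (*Itga4*) with a β1 or β7 chain binds VCAM-1 (*Vcam1*). In the kidney ICAM-1 and VCAM-1 are known from endothelium and, in inflammation, from tubular epithelium, and their transcription is driven by cytokines through NF-κB.

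In the genome build of the counts, Rnor_6.0, the α subunits that pair with β2 lie together on chromosome 1, as *Itgal* (ENSRNOG00000017980, chr1:198744050-198781750, + strand), *Itgam* (ENSRNOG00000019728, chr1:199495298-199623960, + strand) and *Itgax* (ENSRNOG00000036703, chr1:199555722-199576932, + strand). The others are *Itgb2* (ENSRNOG00000001224, chr20:11777783-11815647, − strand), *Itga4* (ENSRNOG00000004861, chr3:66193059-66263960, + strand), *Icam1* (ENSRNOG00000020679, chr8:22035256-22047059, + strand), *Vcam1* (ENSRNOG00000014333, chr2:219071193-219097619, − strand), *Selplg* (ENSRNOG00000000699, chr12:48577905-48579196, + strand) and *Selp* (ENSRNOG00000002794, chr13:82429063-82464628, + strand). The annotation of *Itgam* spans 128663 bases and contains the whole of *Itgax*, which spans 21211 bases. Reads were counted without strand under the default settings of featureCounts, by which a read on exons of more than 1 gene is given to none of them. Counts of *Itgam* and *Itgax* are therefore uncertain wherever the long *Itgam* model shares an exon with *Itgax* or another neighbour. No gene named *Itgad*, another integrin α subunit, is among the genes counted, and whether its reads were counted as *Itgam* was not tested.

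Sequence upstream of the start site is shown for the 3 genes where it bears on a cytokine-driven ligand or a myeloid integrin and lies outside the annotated gene. It is taken from RefSeq on build GRCr8, whose coordinates are not those of the counts, and RefSeq windows were at hand for 5 of the 9 genes (*Itgam*, *Itgax*, *Itga4*, *Vcam1* and *Icam1*). The 250 bases before the start site of each RefSeq window were searched on both strands for 6 motifs, also where they lie inside the annotated gene. These were the NF-κB consensus GGGRNNYYCC (R is A or G, Y is C or T, N any base), the ETS-type core GAGGAA and the AP-1 type TGANTCA. The others were the Sp1-type motif GGGCGG, the TATA-box motif TATAAA and the Runx-type core TGTGGT. Matches are in capitals and the sequences read 5′ to 3′.
Vcam1 (chr2:206742784-206743033, − strand): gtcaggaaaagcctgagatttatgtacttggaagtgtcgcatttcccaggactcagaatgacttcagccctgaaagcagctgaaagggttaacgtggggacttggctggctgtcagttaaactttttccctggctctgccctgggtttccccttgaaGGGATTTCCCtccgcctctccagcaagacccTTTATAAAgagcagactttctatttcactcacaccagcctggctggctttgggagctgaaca
Icam1 (chr8:27829595-27829687, + strand): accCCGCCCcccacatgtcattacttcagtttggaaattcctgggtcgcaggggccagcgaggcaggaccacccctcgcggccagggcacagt
Itgam (chr1:192089342-192089495, + strand): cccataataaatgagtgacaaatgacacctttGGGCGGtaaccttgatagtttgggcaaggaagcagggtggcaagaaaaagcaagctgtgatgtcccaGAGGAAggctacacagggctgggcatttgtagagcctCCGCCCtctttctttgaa
The NF-κB consensus matched in 1 of the 5 windows, that of *Vcam1*, 93 bases before the start site, and not in those of *Icam1*, *Itgam*, *Itgax* or *Itga4*, which says only that these letters are not in those 250 bases. Near matches were not searched for, and the *Icam1* stretch holds tggaaattcc, which differs from the consensus in its first letter. The *Vcam1* window also held TATAAA on both strands, at 60 and 62 bases, where the 2 matches overlap. Among 33469 rat promoter windows of 250 bases, 6.33% held the NF-κB consensus and 12.9% held TATAAA. The *Icam1* window held TATAAA at 53 bases and GGGCGG on the opposite strand at 82 and 247 bases, of which the last is shown, and 30.5% of all windows held GGGCGG. The *Itgam* window held GAGGAA at 151 and, on the opposite strand, 39 bases, against 23.3% of all windows, GGGCGG at 218 and 114 bases, and TGTGGT at 25 bases, against 14.5%. *Itgax* had 1 match, TGANTCA at 56 bases, which 6.34% of windows held, and *Itga4* had 1, TGTGGT at 59 bases on the opposite strand. Only the first 93 bases of the *Icam1* window and 154 of the *Itgam* window lie outside the annotated gene. The *Icam1* matches at 53 and 82 bases and the *Itgam* matches at 39 and 25 bases lie inside it. Most of the *Itgax* and *Itga4* windows, with their matches, lies inside the annotated gene as well. These are matches of letters in a window, and binding was not measured.

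Counts assigned to genes ranged from 12748841 to 21842843 per library, apart from replicate 10 of OM HS14 with 5408126. By the study's mapping results, that library also had the lowest exonic and the highest intronic and intergenic share of all libraries. Within OM HS14 it was the highest library for 3 of the 9 genes (*Itgal*, *Itga4* and *Selp*) and the lowest for 5. The genes described here had between 2 reads (*Selp*) and 1980 reads (*Itgal*) in a library, and CPM is the count scaled to a common library size with TMM factors (trimmed mean of M). Replicate 2 of OM LS carried cortical transcripts, with 354 CPM of the distal convoluted tubule gene *Slc12a3* where the median of OM LS was 14.8 CPM. It was the lowest OM LS library for 8 of the 9 genes. With this library and replicate 10 of OM HS14 both left out, a check chosen after seeing the data, OM HS14 against LS again gave 0 of the 9 genes at an adjusted *P* under 0.05.

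All 9 genes rose in the Cx at HS21, by 1.53-fold (*Icam1*) to 4.98-fold (*Itgal*), at an adjusted *P* under 0.05 in edgeR's quasi-likelihood F-test with Benjamini-Hochberg adjustment over the 14299 genes tested, of which 18.9% were raised and 20.5% lowered. In the Cx at HS14, 5 of the 9 were raised, namely *Itgal*, *Itgb2*, *Itgam*, *Icam1* and *Selp*, where 1.14% of 14181 genes tested were raised and 1.18% lowered. In the OM at HS21, 4 of the 9 were raised, *Itgal*, *Itgb2*, *Itgam* and *Itgax*, where 0.639% of 14555 genes were raised. In the OM at HS14, 0 of the 9 passed in edgeR, 7 were raised at an unadjusted *P* under 0.05, where 4.28% of all genes were, and DESeq2's Wald test called 2, *Itgal* and *Itgam*. Over all 14417 genes edgeR called 0.00694% raised. None of the 9 was lowered in any of these comparisons, and each had a log2 ratio above 0 in all 4. The median log2 ratio over the 9 was 0.79 in Cx HS14, 1.59 in Cx HS21, 0.88 in OM HS14 and 1.40 in OM HS21, where the median over all genes tested lay between −0.03 and 0.00. HS14 and HS21 of a tissue share their LS libraries, so these ratios are not independent of each other. In RNA from whole tissue, more cells of a type and more RNA per cell cannot be told apart.

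The single libraries were also compared for groups that did not overlap. Every HS library lay above every LS library for 4 of the 9 genes in the Cx at HS14 (*Itgal*, *Itgb2*, *Itgam* and *Selp*), where 2.71% of genes tested did so, and for 6 at HS21 (*Itgal*, *Itgb2*, *Itgam*, *Itgax*, *Icam1* and *Selplg*), where 12% did. In the OM this held for *Itgal* and *Itgam* at HS14, where 1.04% of genes did so, and for 7 at HS21, all but *Itga4* and *Selp*, where 2.44% did. Leaving out single libraries weighed on the count of Cx HS14. It was 2 without replicate 1, 3, 4 or 5 of LS or replicate 6 or 9 of HS14, 3 without replicate 2 of LS or replicate 7 or 8 of HS14, and 6, with *Itga4* added, without replicate 10 of HS14. Of the 16 alternatives tried for Cx HS14, 15 kept *Itgb2* and 15 kept *Itgam*, while *Itgal* was kept in 8, *Selp* in 5 and *Icam1* in 4.

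**Figure D1:**
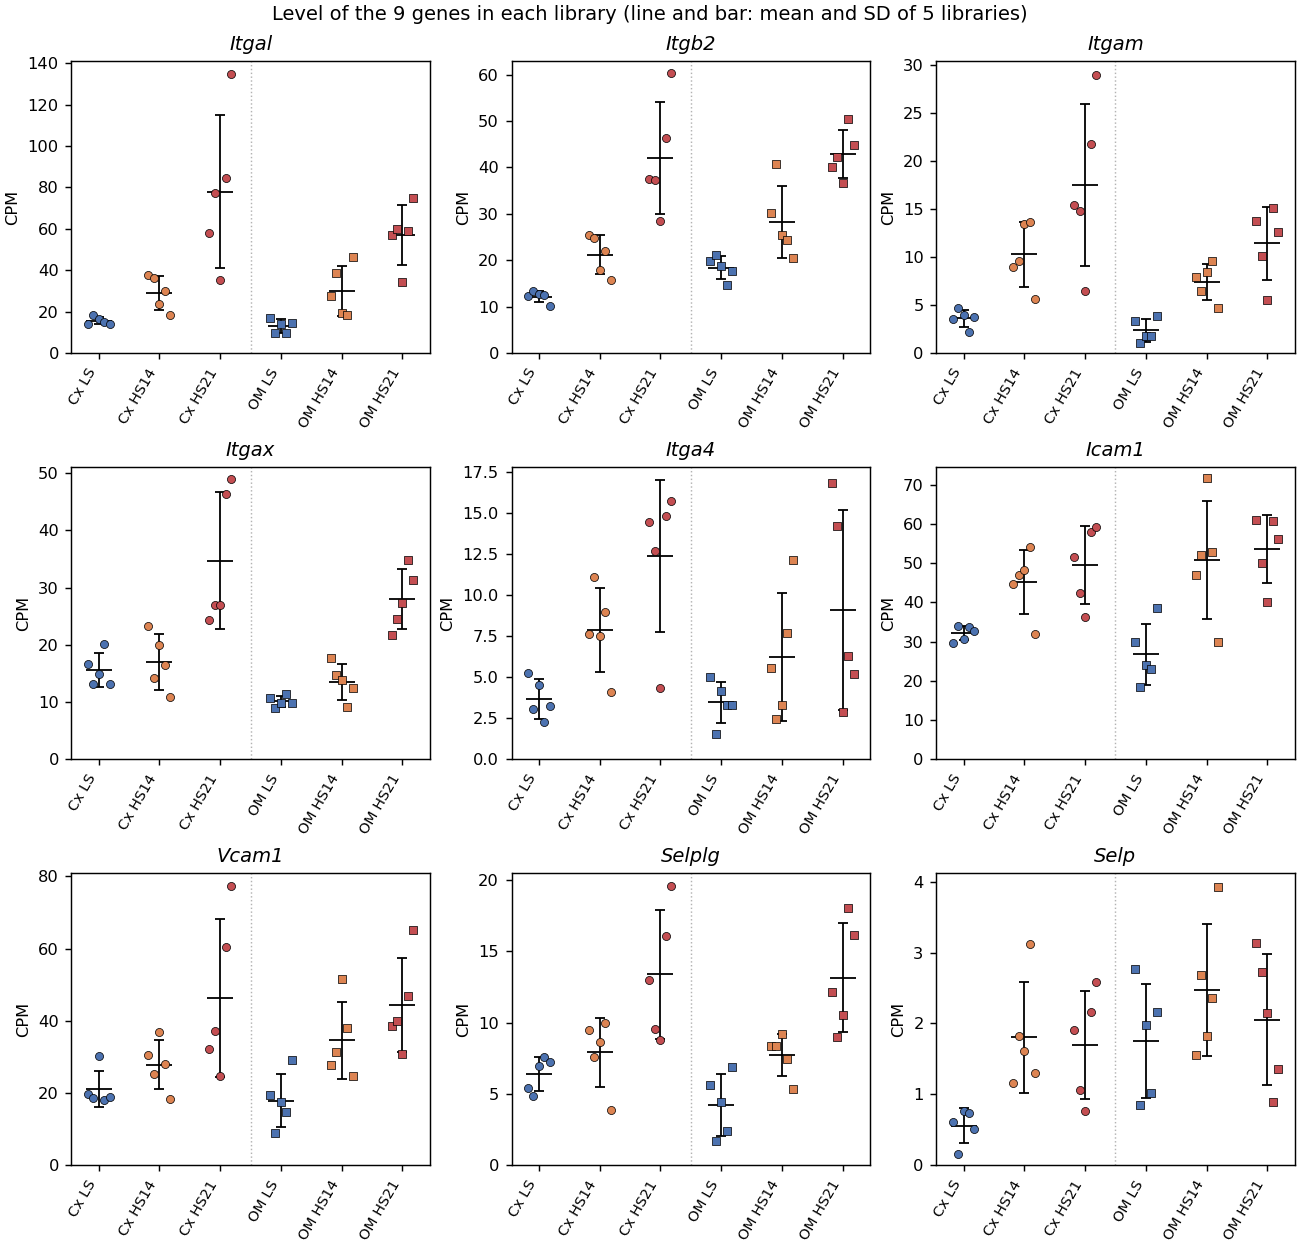
CPM of each gene (vertical axis, linear, 1 panel per gene) in the 6 groups of tissue and diet, where points are the 5 libraries of a group and bars show mean and SD. Itgal climbs from 14.2 to 18.2 CPM in Cx LS to 35.5 to 135 CPM in Cx HS21, and Selp stays under 4 CPM in every library.

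*Itgb2* encodes the β2 chain (CD18) without which αL, αM and αX do not reach the leukocyte surface. In the Cx its libraries measured 12.3, 13.3, 12.6, 12.4 and 10.2 CPM on LS, 25.4, 24.9, 17.99, 21.9 and 15.9 CPM at HS14 and 37.6, 37.3, 28.5, 46.3 and 60.4 CPM at HS21. The 3 groups did not overlap, and replicate 15 of HS21 was the highest and replicate 10 of HS14 the lowest of its group. The log2 ratio to LS was 0.79 ± 0.13 (SE, adjusted *P* = 0.015) at HS14 and 1.78 ± 0.18 (SE, adjusted *P* = 3.47e-05) at HS21, or 1.73-fold and 3.44-fold. In the OM the libraries measured 19.9, 21.1, 18.7, 14.8 and 17.7 CPM on LS, 30.2, 40.7, 25.5, 24.3 and 20.6 CPM at HS14 and 40.1, 42.3, 36.6, 50.5 and 44.7 CPM at HS21. At HS21 all 5 OM libraries stood above all 5 LS libraries, while at HS14 replicate 10 (20.6 CPM) fell within the LS range. The log2 ratio there was 0.62 ± 0.18 (SE, adjusted *P* = 0.579) at HS14 and 1.22 ± 0.12 (SE, adjusted *P* = 0.00436) at HS21.

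*Itgal* encodes the αL subunit (CD11a) of LFA-1, which most lymphocytes, monocytes and neutrophils carry. It measured 14.3, 18.2, 16.5, 15.1 and 14.2 CPM on LS, 37.7, 36.1, 23.7, 29.9 and 18.3 CPM at HS14 and 57.8, 77.4, 35.5, 84.7 and 135 CPM at HS21 in the Cx. Replicates 10 of HS14 (18.3 CPM) and 2 of LS (18.2 CPM) nearly met, HS14 and HS21 overlapped, and the HS21 libraries ran from replicate 13 (35.5 CPM) to replicate 15 (135 CPM). The log2 ratio to LS was 0.89 ± 0.18 (SE, adjusted *P* = 0.027) at HS14 and 2.32 ± 0.29 (SE, adjusted *P* = 0.000141) at HS21, the largest value of the 9 genes in that comparison. The call at HS14 was lost without replicate 1, 3, 4 or 5 of LS or replicate 6 or 9 of HS14, with an adjusted P from 0.0522 to 0.0851 for *Itgal* in those fits. In the OM it measured 17.1, 9.57, 14.1, 9.92 and 14.8 CPM on LS, 27.4, 38.5, 19.6, 18.3 and 46.5 CPM at HS14 and 57.1, 59.96, 34.4, 58.95 and 74.8 CPM at HS21. Both HS groups lay above LS, with replicate 9 of HS14 (18.3 CPM) closest to the highest LS library (17.1 CPM). The log2 ratio was 1.196 ± 0.29 (SE, adjusted *P* = 0.405) at HS14 and 2.12 ± 0.23 (SE, adjusted *P* = 0.00607) at HS21.

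*Itgam* encodes αM (CD11b), which with β2 forms the complement receptor Mac-1 of neutrophils, monocytes and macrophages. In the Cx its libraries measured 3.52, 4.71, 3.93, 2.21 and 3.73 CPM on LS, 8.98, 9.61, 13.4, 13.7 and 5.66 CPM at HS14 and 15.4, 14.8, 6.43, 21.7 and 28.97 CPM at HS21. Both HS groups lay above LS, from 5.66 CPM upwards against at most 4.71 CPM, and overlapped with each other. Relative to LS the log2 ratio was 1.495 ± 0.26 (SE, adjusted *P* = 0.0153) at HS14 and 2.27 ± 0.35 (SE, adjusted *P* = 0.000483) at HS21, 2.82-fold and 4.82-fold. In the OM the libraries measured 3.32, 1.03, 1.78, 1.78 and 3.86 CPM on LS, 7.93, 6.45, 8.39, 9.56 and 4.65 CPM at HS14 and 13.8, 10.1, 5.48, 15.1 and 12.6 CPM at HS21. Here too both HS groups lay above LS, and the log2 ratio was 1.65 ± 0.36 (SE, adjusted *P* = 0.387) at HS14 and 2.27 ± 0.39 (SE, adjusted *P* = 0.0333) at HS21. The OM HS21 call of *Itgam* was lost without replicate 1, 3 or 4 of LS or replicate 11, 12, 14 or 15 of HS21, with an adjusted P from 0.0588 to 0.123, and with total counts as the scaling (adjusted *P* = 0.0731).

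*Itgax* encodes αX (CD11c), a subunit of dendritic cells and of some macrophages. At HS14 it passed the test in neither tissue. The Cx libraries measured 16.6, 13.2, 14.9, 20.2 and 13.1 CPM on LS, 23.2, 14.2, 19.98, 16.6 and 10.8 CPM at HS14 and 24.3, 27.03, 26.9, 46.3 and 49.04 CPM at HS21, and those of HS14 and LS overlapped. edgeR's log2 ratio was 0.11 ± 0.19 (SE, adjusted *P* = 0.821) at HS14. An approximate 95% interval, from the SE under a normal distribution and so too narrow for 5 libraries per group, ran from −0.26 to 0.48. Without replicate 6 of HS14 the log2 ratio changed sign to −0.03. At HS21 it was 1.15 ± 0.22 (SE, adjusted *P* = 0.00159), and all 5 libraries stood above those of LS and of HS14. The OM libraries measured 10.8, 8.89, 9.74, 11.4 and 9.89 CPM on LS, 17.7, 14.7, 13.8, 9.06 and 12.5 CPM at HS14 and 21.7, 24.4, 27.4, 34.9 and 31.4 CPM at HS21. Those of HS21 lay above both other groups, and the log2 ratio was 0.42 ± 0.18 (SE, adjusted *P* = 0.845) at HS14 and 1.46 ± 0.14 (SE, adjusted *P* = 0.00436) at HS21.

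*Itga4* encodes α4, which pairs with β1 or β7 and binds VCAM-1 on endothelium and fibronectin in the matrix. In the Cx it measured 5.28, 3.06, 4.55, 2.28 and 3.21 CPM on LS, 7.61, 11.1, 7.53, 8.97 and 4.09 CPM at HS14 and 14.4, 12.7, 4.35, 14.8 and 15.7 CPM at HS21. In both HS groups 4 of 5 libraries exceeded every LS library, the exceptions being replicate 10 at HS14 and replicate 13 at HS21. Its log2 ratio was 1.09 ± 0.28 (SE, adjusted *P* = 0.0639) at HS14 and 1.75 ± 0.33 (SE, adjusted *P* = 0.00168) at HS21, and without replicate 10 of HS14 the first became 1.25 (adjusted *P* = 0.0179). In the OM it measured 4.98, 1.54, 4.14, 3.31 and 3.32 CPM on LS, 5.56, 2.45, 3.28, 7.71 and 12.2 CPM at HS14 and 16.8, 14.2, 2.90, 6.29 and 5.21 CPM at HS21. Within OM HS21, replicates 11 and 12 were high and replicate 13 lay inside the LS range. Neither ratio passed, with 0.83 ± 0.46 (SE, adjusted *P* = 0.994) at HS14 and 1.40 ± 0.49 (SE, adjusted *P* = 0.276) at HS21.

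*Icam1*, the counter-receptor of the β2 integrins, changed least of the 9 in Cx HS21. In the Cx it measured 29.7, 33.96, 30.8, 33.7 and 32.8 CPM on LS, 44.6, 46.9, 48.2, 54.2 and 31.9 CPM at HS14 and 51.7, 42.3, 36.3, 57.97 and 59.3 CPM at HS21. Replicate 10 of HS14 lay within the LS range, and all other HS libraries lay above it. The log2 ratio was 0.48 ± 0.11 (SE, adjusted *P* = 0.0496) at HS14 and 0.62 ± 0.12 (SE, adjusted *P* = 0.00242) at HS21, 1.40-fold and 1.53-fold. The HS14 call held in only 4 of 16 alternatives and was lost without any of the LS libraries or without replicate 6, 7, 8 or 9 of HS14, with an adjusted P for *Icam1* from 0.0706 to 0.114. In the OM it measured 29.8, 18.4, 24.1, 22.9 and 38.7 CPM on LS, 46.9, 52.2, 71.8, 52.96 and 30.03 CPM at HS14 and 60.9, 50.2, 40.1, 60.7 and 56.3 CPM at HS21, so that HS21 lay above LS, with replicate 13 (40.1 CPM) close to replicate 5 of LS (38.7 CPM). Relative to LS the log2 ratio was 0.93 ± 0.25 (SE, adjusted *P* = 0.448) at HS14 and 1.005 ± 0.20 (SE, adjusted *P* = 0.0521) at HS21. The second passed without replicate 5 of LS (1.16, adjusted *P* = 0.0298) or replicate 13 of HS21 (1.10, adjusted *P* = 0.0320).

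*Vcam1*, the ligand of α4 integrins, measured 19.7, 18.7, 30.1, 18.01 and 18.9 CPM on LS, 30.5, 25.4, 36.8, 28.1 and 18.3 CPM at HS14 and 32.1, 37.1, 24.8, 60.5 and 77.5 CPM at HS21 in the Cx. Replicate 3 of LS stood above the other LS libraries and inside the range of both HS groups, so neither HS group was clear of LS. edgeR's log2 ratio was 0.39 ± 0.18 (SE, adjusted *P* = 0.292) at HS14 and 1.13 ± 0.29 (SE, adjusted *P* = 0.00868) at HS21. In the OM it measured 19.5, 8.98, 17.4, 14.7 and 29.1 CPM on LS, 27.7, 31.4, 51.5, 37.9 and 24.7 CPM at HS14 and 38.7, 39.9, 30.7, 46.97 and 65.2 CPM at HS21. OM HS21 lay above LS, though replicate 13 (30.7 CPM) was near replicate 5 of LS (29.1 CPM), and the log2 ratio was 0.96 ± 0.30 (SE, adjusted *P* = 0.594) at HS14 and 1.31 ± 0.29 (SE, adjusted *P* = 0.0785) at HS21. It passed at HS21 without replicate 5 of LS (1.54, adjusted *P* = 0.0389).

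*Selplg*, the leukocyte ligand of the selectins, measured 5.43, 4.86, 6.94, 7.57 and 7.26 CPM on LS, 9.46, 7.57, 8.65, 10.01 and 3.90 CPM at HS14 and 12.97, 9.56, 8.78, 16.1 and 19.6 CPM at HS21 in the Cx. HS14 overlapped with LS and its lowest library, replicate 10, was below all LS libraries, while every HS21 library was above LS. Its log2 ratio was 0.30 ± 0.23 (SE, adjusted *P* = 0.564) at HS14 and 1.06 ± 0.23 (SE, adjusted *P* = 0.00331) at HS21. In the OM it measured 5.66, 1.71, 4.46, 2.42 and 6.91 CPM on LS, 8.34, 8.36, 9.24, 7.42 and 5.36 CPM at HS14 and 12.1, 8.97, 10.5, 18.03 and 16.1 CPM at HS21, with HS21 clear of LS, and the log2 ratio was 0.88 ± 0.35 (SE, adjusted *P* = 0.782) at HS14 and 1.63 ± 0.37 (SE, adjusted *P* = 0.0778) at HS21.

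*Selp* encodes P-selectin, held in storage granules of endothelial cells and platelets. It was the scarcest of the 9, with 2 to 63 reads per library, so counting error is a larger part of its spread than for the others. In the Cx it measured 0.612, 0.157, 0.771, 0.735 and 0.514 CPM on LS, 1.17, 1.82, 1.62, 3.12 and 1.30 CPM at HS14 and 1.91, 1.06, 0.760, 2.16 and 2.58 CPM at HS21. All HS14 libraries lay above LS, and replicate 13 of HS21 did not. The log2 ratio was 1.69 ± 0.38 (SE, adjusted *P* = 0.0445) at HS14 and 1.59 ± 0.42 (SE, adjusted *P* = 0.0104) at HS21, and the first lost its call without any 1 of the LS libraries or without replicate 6, 7, 8 or 9 of HS14, with an adjusted P for *Selp* from 0.0506 to 0.0981. In the OM *Selp* measured 2.77, 0.855, 1.97, 1.02 and 2.17 CPM on LS, 1.56, 2.69, 1.82, 2.35 and 3.93 CPM at HS14 and 3.14, 2.73, 2.14, 0.899 and 1.36 CPM at HS21, with all 3 groups overlapping, and the log2 ratio was 0.46 ± 0.38 (SE, adjusted *P* = 0.994) at HS14 and 0.22 ± 0.42 (SE, adjusted *P* = 0.931) at HS21. The platelet markers *Pf4*, *Gp9*, *Itga2b*, *Gp1ba*, *Ppbp* and *Gp6* summed to 19.7 to 24.1 CPM in Cx LS, 21.9 to 27.8 CPM in Cx HS14 and 21.9 to 30.3 CPM in Cx HS21, and *Itga2b* gave most of that sum. From Cx LS to Cx HS21 the mean rose for *Pf4* (2.01 to 4.16 CPM), *Gp1ba* (0.244 to 0.622 CPM) and *Gp6* (0.0585 to 0.133 CPM). It fell for *Gp9* (1.43 to 1.13 CPM) and *Ppbp* (0.0742 to 0.0272 CPM). In Cx HS21 edgeR called 0 of the 3 platelet markers tested.

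**Figure D2:**
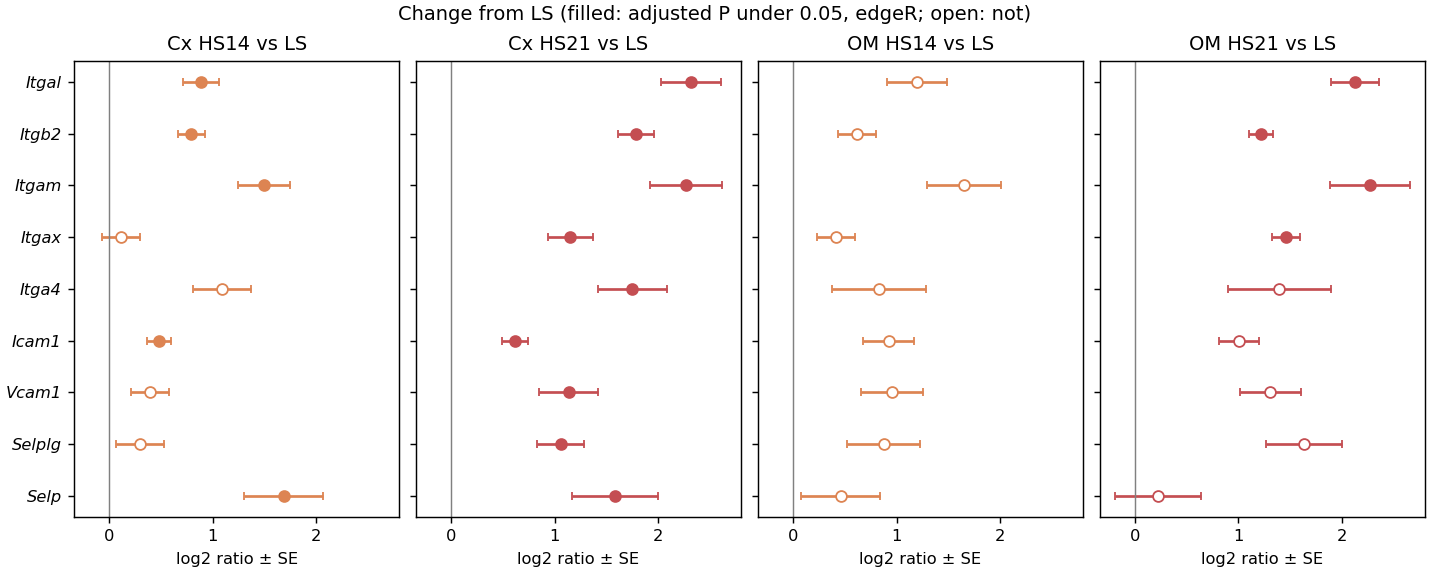
Log2 ratio of HS to LS from edgeR (horizontal axis) with its SE for each gene (vertical axis), in Cx and OM at HS14 and HS21 (panels), where the vertical line marks no change and filled points an adjusted P under 0.05. All 9 points of Cx HS21 are filled, against 5 in Cx HS14, 0 in OM HS14 and 4 in OM HS21.

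Between HS14 and HS21 in the Cx, *Itgal* rose further by 1.43 ± 0.31 (SE, adjusted *P* = 0.015), *Itgax* by 1.04 ± 0.25 (SE, adjusted *P* = 0.0192) and *Itgb2* by 0.99 ± 0.19 (SE, adjusted *P* = 0.0113) on the log2 scale. These 3 of the 9 passed in edgeR, where 6.50% of 14395 genes were raised and 9.69% lowered. For the other 6 the ratio was 0.77 (*Itgam*), 0.66 (*Itga4*), 0.14 (*Icam1*), 0.74 (*Vcam1*), 0.76 (*Selplg*) and −0.10 (*Selp*). The count grew to 7 without replicate 13 of HS21, the library with the lowest value of 8 of the 9 genes in its group, which left *Icam1* and *Selp* uncalled. It was 2 without replicate 7 or 9 of HS14, where *Itgax* was lost (adjusted *P* = 0.0525 and 0.0528). In the OM, edgeR called 0 of the 9 genes between HS14 and HS21, 4 were raised at an unadjusted *P* under 0.05, where 2.32% of all genes were, and DESeq2 called 1, *Itgax*. There the percentage called over all 14499 genes was 0, and the ratios ran from −0.24 (*Selp*) to 1.04 (*Itgax*).

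The single libraries tell how the 9 genes vary within a group. In Cx HS21, replicate 15 was the highest library for all 9 genes and replicate 13 the lowest for 8, *Itgax* being the exception. The summed level of 10 leukocyte markers in these libraries was 826 CPM in replicate 15 and 309 CPM in replicate 13, the extremes of that group as well. In Cx HS14, replicate 10 was lowest for 8 of the 9, all but *Selp*, and it had the lowest leukocyte marker sum of that group, 245 CPM. Its tubular markers stood apart as well. The proximal tubule markers summed to 11390 CPM in it and to 15690 to 15870 CPM in the other libraries of that group. *Slc12a3* measured 2138 CPM in it and 1042 to 1266 CPM in the others. In OM HS21, replicate 13 was lowest for 6 of the 9 and had the lowest marker sum, 425 CPM. In Cx LS no library was highest or lowest for more than 4.

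Levels between genes were compared per kilobase of gene length. In Cx LS, *Icam1* stood at 12.2 ± 0.72 CPM per kb (SD, n = 5), clear of *Vcam1* at 5.27 ± 1.27, *Selplg* at 5.06 ± 0.94, *Itgb2* at 3.87 ± 0.37, *Itgal* at 3.47 ± 0.38 and *Itgax* at 3.34 ± 0.63, which overlapped in that order with their neighbours. Below these, and each clear of the next, came *Itga4* at 1.12 ± 0.37, *Itgam* at 0.487 ± 0.12 and *Selp* at 0.175 ± 0.077. In Cx HS21 the order was *Icam1* at 18.7 ± 3.78, *Itgal* at 17.3 ± 8.20, *Itgb2* at 13.3 ± 3.83, *Vcam1* at 11.6 ± 5.47, *Selplg* at 10.6 ± 3.57 and *Itgax* at 7.43 ± 2.55, all overlapping with their neighbours, then *Itga4* at 3.79 ± 1.42, *Itgam* at 2.35 ± 1.13 and *Selp* at 0.533 ± 0.24. *Itgal* thus stood at rank 5 in Cx LS and at rank 2 in Cx HS21. *Icam1* was the highest per kb in all 6 groups, and *Selp* the lowest in 5, the exception being OM LS, where *Itgam* was lowest at 0.317 ± 0.16 and overlapped with *Selp* at 0.552 ± 0.25.

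**Figure D3:**
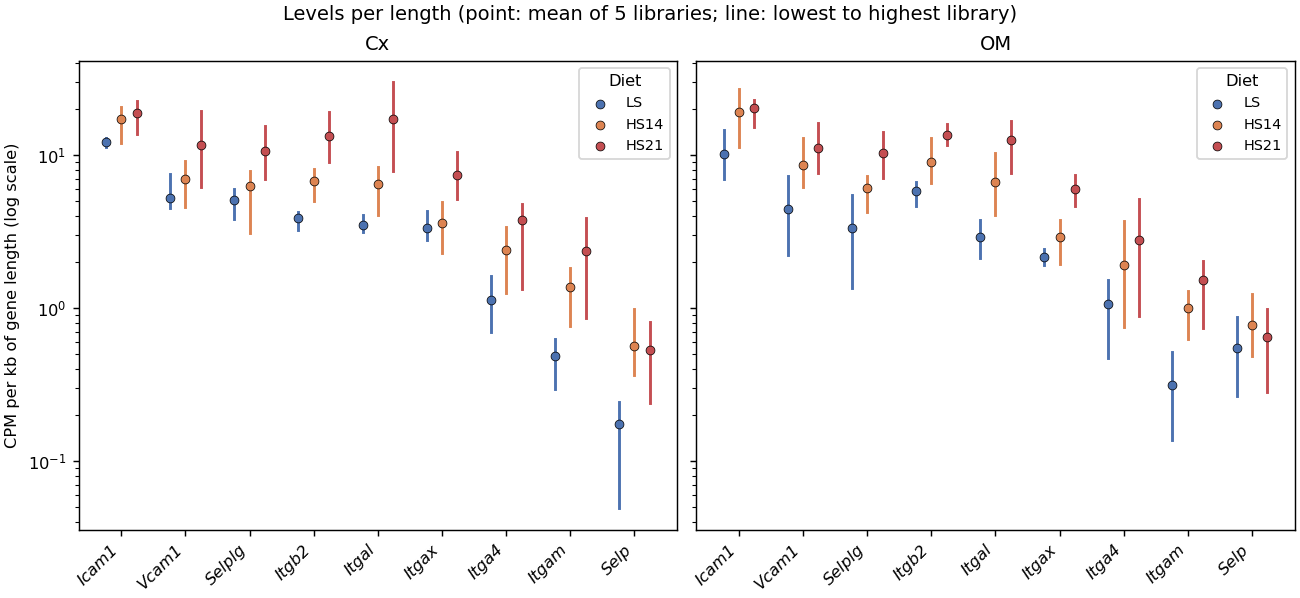
Level per kilobase of gene length (CPM per kb, log axis) of the 9 genes in the 6 groups, where points are group means and lines run from the lowest to the highest of 5 libraries, in the Cx (left) and the OM (right). Icam1 tops every group, and Itgal comes close to it in Cx HS21.

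On LS the tissues differed in 3 of the 9 genes. *Itgb2* was 0.59 ± 0.12 (SE, adjusted *P* = 0.0023) higher in the OM than in the Cx on the log2 scale and *Selp* 1.64 ± 0.42 (SE, adjusted *P* = 0.0108) higher, and *Itgax* was lower by −0.63 ± 0.13 (SE, adjusted *P* = 0.00393). For each of the 3 the OM and Cx libraries did not overlap, but the share of all genes without overlap was not computed for this comparison. Of the 14295 genes tested, 21.3% were higher and 19.5% lower in the OM, so 3 of 9 called is no more than the share of all genes. *Itgax* passed no longer with total counts as the scaling (−0.38, adjusted *P* = 0.0615), under which the median over all genes was 0.27. Without replicate 5 of OM LS, *Icam1* was lower in the OM as well (−0.44, adjusted *P* = 0.0159).

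Whether the diet acted differently on the 9 genes in the Cx and the OM was tested as the interaction of tissue and diet. At HS14 edgeR called 0 of the 9, 1 passed at an unadjusted *P* under 0.05 (*Selp*, −1.25 ± 0.56, SE) and DESeq2 called 0. Over all 15091 genes 0% passed, and 3.70% did at an unadjusted *P* under 0.05. At HS21 edgeR called 0, 2 passed at an unadjusted *P* under 0.05, *Itgb2* (−0.57 ± 0.22, SE) and *Selp* (−1.37 ± 0.61, SE), and DESeq2 called 0. Over all 15194 genes 0.665% passed and 15.6% did at an unadjusted *P* under 0.05, so 2 of 9 is near the share of all genes. A negative value is a smaller rise in the OM. Both tissues of a group were dissected from the kidneys of the same rats, and a block by replicate number left these counts at 0. The larger number of calls in the Cx is therefore not shown to be a difference between the tissues, and the common dispersion among libraries was 0.0299 in the Cx and 0.0950 in the OM for HS21 against LS.

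Leukocyte marker genes moved with the integrins. The summed level of *Ptprc* (CD45), *Cd52*, *Cd53*, *Laptm5*, *Coro1a*, *Cd37*, *Cd48*, *Lcp1*, *Hcls1* and *Arhgdib* was 170.5 to 239.9 CPM in Cx LS, 245 to 331 CPM in Cx HS14 and 309 to 826 CPM in Cx HS21, and 138 to 319.7, 340.1 to 416 and 425 to 601 CPM in the OM groups. Of the 9 of these markers tested, 3 were raised in Cx HS14, 9 in Cx HS21, 0 in OM HS14 (5 at an unadjusted *P* under 0.05) and 3 in OM HS21. The 8 macrophage markers summed to 122 to 163, 152 to 269.9 and 219.9 to 764 CPM and the 9 T cell markers to 39.1 to 50.5, 50.9 to 73.8 and 58.2 to 184 CPM in Cx LS, HS14 and HS21. The 7 neutrophil markers summed to 2.06 to 3.55, 4.62 to 33.6 and 8.02 to 18.8 CPM with *Mpo* at 0 in every LS and HS14 library of both tissues, and the 5 B cell markers reached at most 4.20 CPM in any library. *Cd4* gave most of the T cell sum in the Cx, with a mean of 25.9 CPM on LS and 67.7 CPM at HS21. The T cell receptor genes *Cd3e*, *Cd3d* and *Cd3g* gave little of it, with means of 0.357, 0.257 and 0.297 CPM on LS and 5.63, 2.78 and 3.02 CPM at HS21. Of 7 T cell markers tested in Cx HS21, 6 were raised and 1 was lowered, and mean *Cd28* fell from 12.9 CPM on LS to 5.92 CPM. The 13 endothelial markers summed to 1013 to 1096 CPM in Cx LS, 999.6 to 1172 CPM in Cx HS14 and 1015 to 1270.0 CPM in Cx HS21, and to 659.7 to 1289, 997.9 to 1462 and 988.4 to 1124 CPM in the OM groups. Tubular markers moved too. The 6 markers of injured tubule (*Havcr1*, *Lcn2*, *Krt20*, *Spp1*, *Vim* and *Sox9*) summed to 191.3 to 390.5 CPM in Cx LS, 343.8 to 711.5 CPM in Cx HS14 and 431 to 1085 CPM in Cx HS21, with *Krt20* at 0 in all Cx LS and HS14 libraries. *Spp1* gave most of that sum, with means of 175.5, 365.9 and 570.1 CPM in these groups, followed by *Vim* with 66.5, 87.2 and 150.5 CPM. Mean *Havcr1* was 4.69, 5.10 and 18.4 CPM. Of 5 injured tubule markers tested, 2 were raised in Cx HS14 and 4 in Cx HS21 (median log2 ratio 1.70). Of 6 proximal tubule markers 1 was lowered in Cx HS14 and 6 in Cx HS21 (median log2 ratio −0.83). In the OM edgeR called none of either list, with 0 at HS14 and 1 at HS21 under an unadjusted *P* of 0.05, and the injured tubule sums ran from 399.1 to 3010 CPM on LS, 1109 to 3725 CPM at HS14 and 1792 to 3571 CPM at HS21. The part of these cell types in the changes of the 9 genes was not tested beyond the ratios that follow.

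Ratios within a library set each gene against a leukocyte or endothelial reference and do not depend on the scaling of libraries. No ratio to a tubular reference was computed for *Icam1* and *Vcam1*. Of 12 ratios in the 4 comparisons with LS, 48 tests in all, 0 passed the exact permutation test over the 252 regroupings after Benjamini-Hochberg adjustment, where the smallest *P* possible is 0.00794 and the lowest adjusted P was 0.0635. At an unadjusted *P* under 0.05 there were 23, namely 6 in Cx HS14, 8 in Cx HS21, 3 in OM HS14 and 6 in OM HS21, and 6 stood at the smallest *P*, where 8 would have been needed for a call. The values below are therefore sizes and ranges, none of them past the adjusted threshold.

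Against *Ptprc*, the pan-leukocyte protein tyrosine phosphatase CD45, *Itgb2* differed from LS by 0.0036 at HS14 and −0.03 at HS21 in the Cx on the log2 scale, and by −0.54 (exact permutation *P* = 0.238) and −0.51 (exact permutation *P* = 0.0873) in the OM. *Itgam* to *Ptprc* was 0.67 higher in Cx HS14 (exact permutation *P* = 0.0476), 0.35 in Cx HS21 (exact permutation *P* = 0.135), 0.57 in OM HS14 (exact permutation *P* = 0.151) and 0.55 in OM HS21 (exact permutation *P* = 0.0397). *Itga4* to *Ptprc* ran from −0.55 in OM HS21 to 0.29 in Cx HS14, with none at an unadjusted *P* under 0.05. *Itgal* to *Ptprc* was 0.42 higher in Cx HS21 (exact permutation *P* = 0.0159) and 0.38 higher in OM HS21 (exact permutation *P* = 0.0318). *Itgax* to *Ptprc* went the other way in the Cx, with −0.68 at HS14, where the 5 HS14 libraries all lay below the 5 LS libraries (exact permutation *P* = 0.00794), and −0.66 at HS21 (exact permutation *P* = 0.0318). The OM values of *Itgax* to *Ptprc* were −0.74 at HS14 (exact permutation *P* = 0.0873) and −0.29 at HS21 (exact permutation *P* = 0.389). *Selplg* to *Ptprc* was −0.52 in Cx HS14 (exact permutation *P* = 0.0635) and −0.76 in Cx HS21 (exact permutation *P* = 0.0159). In the OM *Selplg* to *Ptprc* was −0.13 at HS14 (exact permutation *P* = 0.730) and 0.0019 at HS21 (exact permutation *P* = 0.992).

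Against their shared partner *Itgb2*, the α subunits differed in direction in the Cx. *Itgax* to *Itgb2* was −0.69 in Cx HS14 and −0.63 in Cx HS21 (both exact permutation *P* = 0.0159). In the OM it was −0.20 at HS14 (exact permutation *P* = 0.381) and 0.22 at HS21 (exact permutation *P* = 0.246). *Itgal* to *Itgb2* was 0.44 in Cx HS21 (exact permutation *P* = 0.0318) and 0.89 in OM HS21, where HS21 lay wholly above LS (exact permutation *P* = 0.00794). *Itgam* to *Itgb2* was 0.67 in Cx HS14 (exact permutation *P* = 0.0397), 1.11 in OM HS14 and 1.06 in OM HS21 (both exact permutation *P* = 0.0318).

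Set against the mean log2 CPM of the endothelial markers, *Icam1* was 0.50 higher in Cx HS21 and 0.95 higher in OM HS21, and in both every HS21 library lay above every LS library (exact permutation *P* = 0.00794). *Vcam1* was 0.93 higher in Cx HS21 (exact permutation *P* = 0.0159) and 1.28 higher in OM HS21 without overlap (exact permutation *P* = 0.00794). *Selp* was 1.52 higher in Cx HS14, again without overlap (exact permutation *P* = 0.00794), and 1.29 higher in Cx HS21 (exact permutation *P* = 0.0159). Of the 13 endothelial markers themselves, 4 were raised and 1 lowered in Cx HS21, and edgeR called 0 in the other 3 comparisons with LS, with 2, 0 and 0 of them under an unadjusted P of 0.05 in Cx HS14, OM HS14 and OM HS21. Without replicate 13 of Cx HS21, 4 ratios of that comparison passed the adjustment (*Itgal* to *Itgb2*, *Itgax* to *Ptprc*, and *Icam1* and *Selp* to the endothelial markers), and without replicate 10 of OM HS14, 2 of that comparison did (*Icam1* and *Vcam1* to the endothelial markers).

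**Figure D4:**
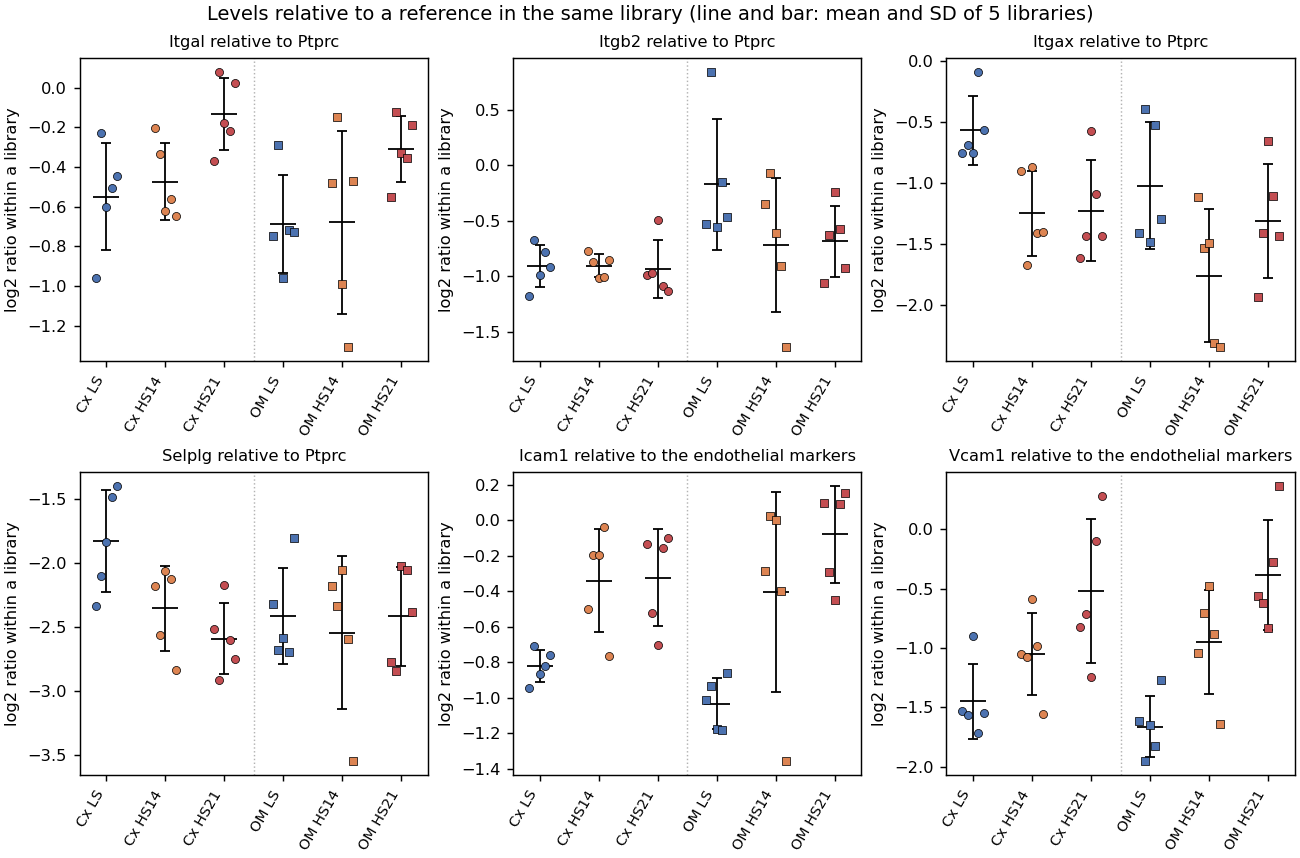
Log2 ratio of 2 levels within each library (vertical axis) in the 6 groups, for Itgal, Itgb2, Itgax and Selplg relative to Ptprc and for Icam1 and Vcam1 relative to the endothelial markers, where points are libraries, lines and bars mean and SD of 5. Itgax to Ptprc lies lower in Cx HS14 than in Cx LS in all 5 libraries, and Icam1 to the endothelial markers lies higher in HS21 than in LS in both tissues.

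Across the 30 libraries, with the mean of each tissue subtracted, log2 CPM of the 9 genes went with *Ptprc* at a Pearson r of 0.959 for *Itgal*, 0.912 for *Itgam*, 0.877 for *Itgb2*, 0.864 for *Vcam1*, 0.851 for *Selplg*, 0.827 for *Itga4*, 0.787 for *Itgax*, 0.772 for *Icam1* and 0.591 for *Selp*. The libraries of a group share their diet, so these values describe the diet groups as much as the single rats. Among the 9 themselves the closest pairs were *Itgal* and *Itgb2* (0.926), *Itgam* and *Icam1* (0.914), *Vcam1* and *Selplg* (0.905) and *Itgam* and *Vcam1* (0.903), and the least alike were *Itgax* and *Selp* (0.223). Among 14061 candidates (mean level 1 CPM or more), those most like each member over the same 30 libraries were *Ptprc*, *Fgr* and *Pik3r5* for *Itgal* (0.959 to 0.951), *Rasal3*, *Myo1g* and *Fyn* for *Itgb2* (0.963 to 0.934), *Cd53*, *Spi1* and *MGC112715* for *Itgam* (0.940 each) and *Fcgr3a*, *Slc11a1* and *Cd6* for *Itgax* (0.896 to 0.883). For *Itga4* they were *LOC499229*, *Dock10* and *Apaf1* (0.887 to 0.864), and for *Selplg* *Fermt3*, *Arhgap9* and *Pld4* (0.952 to 0.938). For the ligands they were *C1s*, *Csf1* and *Tmem176a* with *Icam1* (0.930 to 0.918) and *C1s*, *C1r* and *Slamf8* with *Vcam1* (0.948 to 0.941), so that the complement protease *C1s* led both lists. *Selp* was like no gene to the same degree, with *RGD1305928*, *Prr5l* and *Cyp1b1* at 0.780 to 0.739.

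The other genes of leukocyte adhesion were read from 5 lists. In Cx HS14 edgeR raised 1 of 18 other integrin subunits tested (*Itgb7* at 1.02 on the log2 scale, the β7 partner of α4), 1 of 10 other immunoglobulin-type ligands and junctional molecules (*Jam2* at 0.65, a junctional adhesion molecule), 2 of 13 selectins, selectin ligands and their glycosylation enzymes (among them *Spn* at 0.81, the leukocyte sialomucin CD43) and 3 of 11 cytokine inputs and NF-κB genes (*Il1b* at 1.30, *Irf1* at 0.60 and *Nfkb2* at 0.26). None of these lists had a lowered gene, where 1.14% of all genes tested were raised and 1.18% lowered. Of 20 genes of inside-out integrin activation, the signalling from within the cell that opens the integrin, edgeR called 0, 10 were raised at an unadjusted *P* under 0.05, where 9.05% of all genes were, and DESeq2 called 3.

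In Cx HS21 the same lists gave 6 raised and 3 lowered of 18 integrin subunits, 7 and 0 of 10 ligands and junctional molecules, 6 and 3 of 13 selectins, ligands and glycosylation enzymes, 13 and 1 of 20 activation genes and 7 and 0 of 11 cytokine inputs, beside 18.9% raised and 20.5% lowered of all genes. The median log2 ratio of the lists was 0.15, 0.45, 0.325, 0.80 and 0.56 in that order, against 0.0046 over all genes. The 3 lowered integrin subunits and the 3 lowered selectin genes are near the share of all genes. Among the integrin subunits with the smallest P were *Itgb7* at 2.01, *Itgb4* at 1.31 (β4, a hemidesmosome subunit of epithelia) and *Itga6* at −1.17 (α6, a laminin receptor subunit). Among the ligands were *Icam2* at 0.74, *Jam2* at 1.09 and *Cd226* at 2.28, a lymphocyte activating receptor. The selectin list was led by *Spn* at 1.49, *Cd44* at 1.71 (the hyaluronan receptor) and *Gcnt1* at −0.60, a glycosyltransferase that builds selectin ligands. The activation list was led by *Plcg2* at 0.79, *Rassf5* at 0.47 (RAPL, which links Rap1 to αL) and *Was* at 1.52, the Wiskott-Aldrich protein of the leukocyte cytoskeleton. The cytokine inputs were led by *Il1b* at 1.93, *Tnfrsf1b* at 1.48 (a TNF receptor) and *Irf1* at 1.81.

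Fewer of these genes passed in the OM. At HS14 edgeR called 0 in each of the 5 lists, and DESeq2 called 0, 0, 1, 1 and 1 in the order given. Of 19, 10, 15, 20 and 11 genes tested, 1, 0, 5, 6 and 5 were raised at an unadjusted *P* under 0.05. The share of all genes was 4.28%, so the counts of integrin subunits and ligands are no more than near it. At HS21 the calls were *Spn* at 1.64, *Apbb1ip* at 1.504 (RIAM, an adaptor of integrin activation) and *Tnfrsf1b* at 1.45, and 0 were lowered. Each was the only call of its list, of 15, 20 and 11 genes tested, beside 0.639% raised of all genes. Between HS14 and HS21 in the Cx, 2 of 19 integrin subunits, 3 of 10 ligands, 4 of 14 selectin genes, 5 of 20 activation genes and 1 of 11 cytokine inputs rose, and 2 integrin subunits and 1 selectin gene fell, beside 6.50% raised and 9.69% lowered of all genes.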

How the data were processed

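Poly(A) mRNA of the 30 Cx and OM libraries (15 per tissue) was sequenced in pairs without strand information. The authors aligned clean reads to Ensembl Rnor_6.0 with HISAT2 2.0.5 and assigned them to genes with featureCounts 1.5.0-p3 under default settings. The deposited counts are raw. StringTie 1.3.3b is also named in the submitters' processing notes. FPKM, which the authors derived from counts and gene length, served in 1 alternative only, as log2(FPKM + 1). The deposited gene lengths and positions are other columns, in bases. The authors' comparison columns were not used: group means (signal) after normalization by the authors, their log2 fold changes, and their *P* values (p-value and adjusted p-value), all deposited per pair of groups.

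Samples were grouped by the submitters' tissue and diet labels. By the study's methods a group's kidneys were each divided into Cx and OM, so its tissues share rats, but equal replicate numbers are not stated to mark the same rat. The 9 genes and the gene lists were chosen with earlier results of these data known, so no list is independent evidence. From the counts, edgeR 4.0.16 (R 4.3.3) was run on the whole table with filterByExpr, TMM scaling and the quasi-likelihood F-test, on the 10 libraries compared (20 for interactions), with Benjamini-Hochberg adjustment over all genes tested and a call at an adjusted *P* under 0.05. All 9 genes passed the filter in each fit. The SE of an edgeR log2 ratio was derived from the ratio and its F value. Log2 CPM used a prior count of 2. Ratios within a library were tested by two-sided exact permutation. Genes of the lists were named by smallest *P* among those called, at most 3 per list and comparison (1 of these is not reported here), and likeness by Pearson's r over log2 CPM after subtraction of tissue means. Alternatives were DESeq2 1.42.0, limma 3.58.1 on FPKM, other scalings, no filter, 1 fit of all 30 libraries, a replicate block and each library left out. Shares of all genes called are those of the main edgeR fits and are not given for these alternatives. The scripts were tested on simulated data with known changes. Libraries of a group were checked for copies, and the lowest chi-square per gene over 60 pairs was 7.29, far above sampling noise. Errors over 5 libraries include both the differences between rats and counting error.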

Additional observations from a re-analysis of the deposited data

Results flagged for a closer look

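In 54 groups of 5 libraries (9 genes in 6 groups) the highest and the lowest library were checked for a gap to the others that is large against the range of the group, and chance marks about 1 in 20 such groups. Only 2 groups were marked. *Itga4* in replicate 13 of Cx HS21 measured 4.35 CPM where the other 4 libraries of that group measured 12.7 to 15.7 CPM. This library was also the lowest of its group for 8 of the 9 genes and had the lowest sum of leukocyte markers. *Vcam1* in replicate 3 of Cx LS measured 30.1 CPM where the other 4 measured 18.0 to 19.7 CPM, and the other 8 genes did not single that library out.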

How the results depend on the processing

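For single genes over all comparisons, settings other than leaving out a library left direction and side of the threshold as they were in 468 values, while 17 values came to pass, 11 no longer passed and 8 changed sign. Leaving out each library gave 754, 9, 33 and 14. Cx HS21 gave 9 of 9 genes under every alternative. Cx HS14 gave 2 in limma on log2(FPKM + 1), 0 when all 30 libraries shared 1 fit, and 2 to 6 without single libraries. OM HS14 gave 2 with DESeq2 and 3 in the fit of all libraries, OM HS21 gave 7 with each, Cx HS21 against HS14 gave 5 with DESeq2 and 2 to 7 without single libraries (7 without replicate 13 of HS21), and OM HS21 against HS14 gave 1 with DESeq2. With the mean of the leukocyte markers in place of *Ptprc*, 1 ratio passed in Cx HS14, 2 in Cx HS21, 1 in OM HS14 and 5 in OM HS21. Without single libraries 0 to 4 ratios passed in Cx HS21 (4 without replicate 13) and 0 to 2 in OM HS14 (2 without replicate 10). The cause of these moves was not tested.

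The values that changed sign were none of them called. Total counts as the scaling moved the median of all genes to 0.13 (Cx HS21, and Cx HS21 against HS14), 0.27 (OM against Cx) and −0.16 (interaction at HS21), and under it *Selp* turned to 0.023 in Cx HS21 against HS14, and *Itga4* and *Vcam1* to 0.18 and 0.033 in OM against Cx. In the interaction *Itgam* turned to −0.060 in limma at HS14 and, at HS21, to 0.0079 with DESeq2's size factors, 0.015 in DESeq2 and 0.12 with the replicate block, and *Itgal* turned to −0.012 at HS14 without replicate 2 of OM LS and replicate 10 of OM HS14. *Itgb2* to *Ptprc* turned to 0.27 in Cx HS21 with the leukocyte marker mean. Without single libraries the values ran from −0.025 to 0.23 for *Itgax* in Cx HS14, −0.30 to 0.20 for *Selp* in Cx HS21 against HS14, −0.052 to 0.23 for *Icam1* in OM HS21 against HS14 and −0.25 to 0.083 for *Itga4* in OM against Cx. As interactions they ran from −0.041 to 0.46 for *Itgal*, −0.17 to 0.37 for *Itgam* and −0.82 to 0.072 for *Itga4* at HS14 and from −0.28 to 0.22 for *Itgam* at HS21. *Itgb2* to *Ptprc* ran from −0.064 to 0.062 in Cx HS14 and from −0.14 to 0.031 in Cx HS21.

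The pairing of Cx and OM by replicate number was checked from the deviations of equal numbers, whose correlation ran from −0.07 to 0.44, with 13 of 15 numbers matching best with their own. This is a hint from the data that equal numbers mark the same rat, which the sources used here do not state. The replicate block left 3 genes called in OM against Cx and 0 in each interaction. For the adhesion lists (integrin subunits, ligands, selectin genes, activation genes, cytokine inputs) in Cx HS14, calls ran over the alternatives from 0 to 4, 0 to 1, 1 to 3, 0 to 3 and 0 to 4. In Cx HS21 the fit of all libraries lowered the first 3 lists to 4, 4 and 5, in OM HS21 DESeq2 gave 1, 1, 3, 9 and 3 against 0, 0, 1, 1 and 1, and in Cx HS21 against HS14 the lowest counts were 1, 0, 2, 2 and 0 against 4, 3, 5, 5 and 1. DESeq2 called 6 selectin genes against 3 in OM against Cx, and 2 ligands and 3 activation genes against 0 in the interaction at HS21. Depth limits *Selp*, at 2 to 63 reads, most of the 9 genes.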
